A study of Mus musculus with 12 samples.

Results

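The 31 genes described here encode enzymes, regulators and carriers of cholesterol synthesis and handling in the mouse liver. They were chosen by name, with no measured value in the rule but with earlier results of these data known. The choice was from the 14188 genes that had at least 1 listed protein-coding transcript. The 31 genes comprised 18 enzymes that lead from acetyl-CoA to cholesterol, 4 regulators of that synthesis and 9 genes of uptake, storage, transport and export. The level of a gene is the sum of the FPKM (a fragment count scaled by transcript length and library size) of its listed transcripts, of which the 31 genes had 86. All 31 genes had a level above 0 in each of the 12 mice, from 3.76 FPKM (Mvd in PZH 3) to 262 FPKM (Insig1 in PZH 1).

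Livers were taken in the eighth week from 6 PZH mice and 6 control mice, and each sample is 1 mouse. All were male mice, aged 6 weeks at the start, and all received CCl4, a solvent that injures hepatocytes, mixed with corn oil by injection into the peritoneum throughout the experiment. The PZH group was also given Pien Tze Huang (PZH), a traditional Chinese medicine made of several ingredients, into the stomach every day, and the control group was given double distilled water in the same way. The labels name the strain C57BL/8 and the methods of the study name it C57BL/6J, and mice without CCl4 were not analysed here. The comparison therefore asks how the levels of these genes in a CCl4-injured liver differed between mice with and without PZH.

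Cholesterol is built from acetyl-CoA through mevalonate and the linear molecule squalene, which is closed into lanosterol and then trimmed and reduced to cholesterol. The transcription factor SREBP2 (gene Srebf2) is held in the membrane of the endoplasmic reticulum by its escort SCAP and the INSIG proteins while sterols are plentiful. When sterols fall, SCAP carries SREBP2 to the Golgi, where it is cut, and its released part turns on the genes of the pathway through sterol regulatory elements, usually together with the factors NF-Y and Sp1. The liver also takes up cholesterol from lipoproteins, esterifies it for storage, moves it between membranes, frees it in lysosomes and secretes it into bile.

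Promoter sequences were taken from RefSeq (GRCm38.p6) as windows from 250 bases before to 50 bases after the start of a gene, and 24 of the 31 genes had at least 1 such window. Fdps, Fdft1, Sqle, Scarb1, Soat2, Stard4 and Npc1 had none. The windows were searched on both strands for the 10-base sterol regulatory element, for its last 8 bases alone (CACNCCAC, the shorter form, which every match of the longer form also holds), for the NF-Y box (CCAAT) and for the Sp1 box (GGGCGG). The longer element was in none of the 24 genes, and it was in 0.234% of all 32851 windows. The shorter form was in 3 of 24 genes (12.5%), namely Insig1, Hmgcs1 and Acat2, against 7.69% of the 10990 genes of the expression table that had a window. The NF-Y box was in 22 of 24 genes (91.7%), that is in all but Acat2 and Scap, against 42.6% of those table genes, and the Sp1 box was in 21 of 24 (87.5%) against 64.4%. These are matches of letters and not measured binding sites. Pmvk held the NF-Y box only in the window at position 89454541 of chromosome 3, while its most abundant transcript began at 89459118. The 250 bases before the start are printed 5′ to 3′ on the strand of the gene for the 3 genes with the shorter element, for Sc5d, whose level differed most between the groups, and for both main starts of Insig2, with matches of CACNCCAC and CCAAT on either strand in capitals.
Insig1 promoter (chr5:28071162-28071411, plus strand): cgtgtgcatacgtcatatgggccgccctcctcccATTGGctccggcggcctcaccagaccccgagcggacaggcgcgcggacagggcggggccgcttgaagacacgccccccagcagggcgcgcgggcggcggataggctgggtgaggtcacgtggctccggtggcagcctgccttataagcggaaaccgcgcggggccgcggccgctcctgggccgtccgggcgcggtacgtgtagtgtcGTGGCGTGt
Hmgcs1 promoter (chr13:119690101-119690350, plus strand): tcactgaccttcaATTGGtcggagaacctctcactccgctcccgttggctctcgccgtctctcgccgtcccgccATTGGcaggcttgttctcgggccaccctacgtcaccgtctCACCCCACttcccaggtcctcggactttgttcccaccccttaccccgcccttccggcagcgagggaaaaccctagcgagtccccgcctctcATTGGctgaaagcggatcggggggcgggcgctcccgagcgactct
Acat2 promoter (chr17:12960726-12960975, minus strand): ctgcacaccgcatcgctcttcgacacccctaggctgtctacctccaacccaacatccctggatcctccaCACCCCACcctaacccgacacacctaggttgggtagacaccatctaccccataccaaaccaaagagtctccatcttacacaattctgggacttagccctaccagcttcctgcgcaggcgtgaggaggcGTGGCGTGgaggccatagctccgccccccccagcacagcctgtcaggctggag
Sc5d promoter (chr9:42264301-42264550, minus strand): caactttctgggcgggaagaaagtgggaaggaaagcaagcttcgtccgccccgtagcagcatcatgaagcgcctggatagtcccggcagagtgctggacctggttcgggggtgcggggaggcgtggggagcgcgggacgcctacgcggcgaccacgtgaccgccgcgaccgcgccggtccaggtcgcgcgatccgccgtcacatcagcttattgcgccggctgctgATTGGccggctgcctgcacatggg
Insig2 upstream start (chr1:121332590-121332839, minus strand): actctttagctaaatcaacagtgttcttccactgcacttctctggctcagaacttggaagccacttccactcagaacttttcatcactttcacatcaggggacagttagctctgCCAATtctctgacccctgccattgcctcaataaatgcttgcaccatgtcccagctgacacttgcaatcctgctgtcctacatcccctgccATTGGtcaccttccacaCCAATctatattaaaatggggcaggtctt
Insig2 main start (chr1:121328025-121328274, minus strand): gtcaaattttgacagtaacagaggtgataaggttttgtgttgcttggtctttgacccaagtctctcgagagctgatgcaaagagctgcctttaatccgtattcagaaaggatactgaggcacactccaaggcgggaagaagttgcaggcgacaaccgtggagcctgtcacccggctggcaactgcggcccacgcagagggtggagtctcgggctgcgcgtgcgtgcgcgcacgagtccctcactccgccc
The short element of Insig1 began 9 bases before the start of the gene, on the opposite strand. Hmgcs1 held it 136 bases and Acat2 held it 181 and 53 bases before the start. Sc5d had 1 NF-Y box, the upstream start of Insig2 had 3, and the window at the main start of Insig2 had none.

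The deposited values are FPKM and not read counts, so the depth behind a value is unknown, and the spread between mice is the only measure of precision. Groups were compared on log2(FPKM + 1) with limma over all genes, and a gene was called higher or lower at a Benjamini-Hochberg adjusted p below 0.05. Among all genes 6358 of 14188 (44.8%) were called, 1798 (12.7%) higher and 4560 (32.1%) lower in the PZH group. The median difference over all genes was -0.11 on the log2 scale, and dividing each mouse by its median-ratio scale factor moved it to -0.00 and the share of called genes that were higher from 28.3% to 50.6%. These factors ran from 0.875 to 1.005 in the PZH group and from 1.03 to 1.11 in the control group, without overlap. A difference below is PZH minus control on log2(FPKM + 1) as deposited, with its standard error (SE). Where the scale factor ends or makes a call, its value is given too. These are whole livers, so fewer cells of a type and less RNA per cell cannot be told apart.

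Of the 31 genes, 11 (35.5%) were called, 8 higher and 3 lower in the PZH group, which is a smaller share than the 44.8% of all genes. The higher genes were the synthesis enzymes Acat2, Mvk, Pmvk, Ebp and Sc5d, the regulator Insig1, the sterol carrier Stard4 and the lysosomal lipase Lipa. The lower genes were the enzyme Sqle and the regulators Srebf2 and Insig2. The median difference was 0.08 over the 31 genes, 0.14 over the 18 enzymes and 0.05 over the 9 handling genes, beside -0.11 over all genes, and 22 of the 31 lay above the median of all genes. The levels of the groups did not overlap for 3 of the 31 genes (Srebf2, Stard4 and Lipa), whereas this held for 24.3% of all genes. By the criteria of the study, a 2-fold change with an unadjusted P below 0.05, only Sc5d passed at the level of genes, against 4.02% of all genes. After median-ratio scaling 11 of the 31 were again called, 10 higher and 1 lower, beside 39.1% of all genes (19.8% higher and 19.3% lower). Sqle (adjusted p = 0.0857) and Insig2 (adjusted p = 0.0764) were then no longer called, and Scap (0.29, adjusted p = 0.0290) and Mylip (0.29, adjusted p = 0.00584) were called higher.

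**Figure D1:**
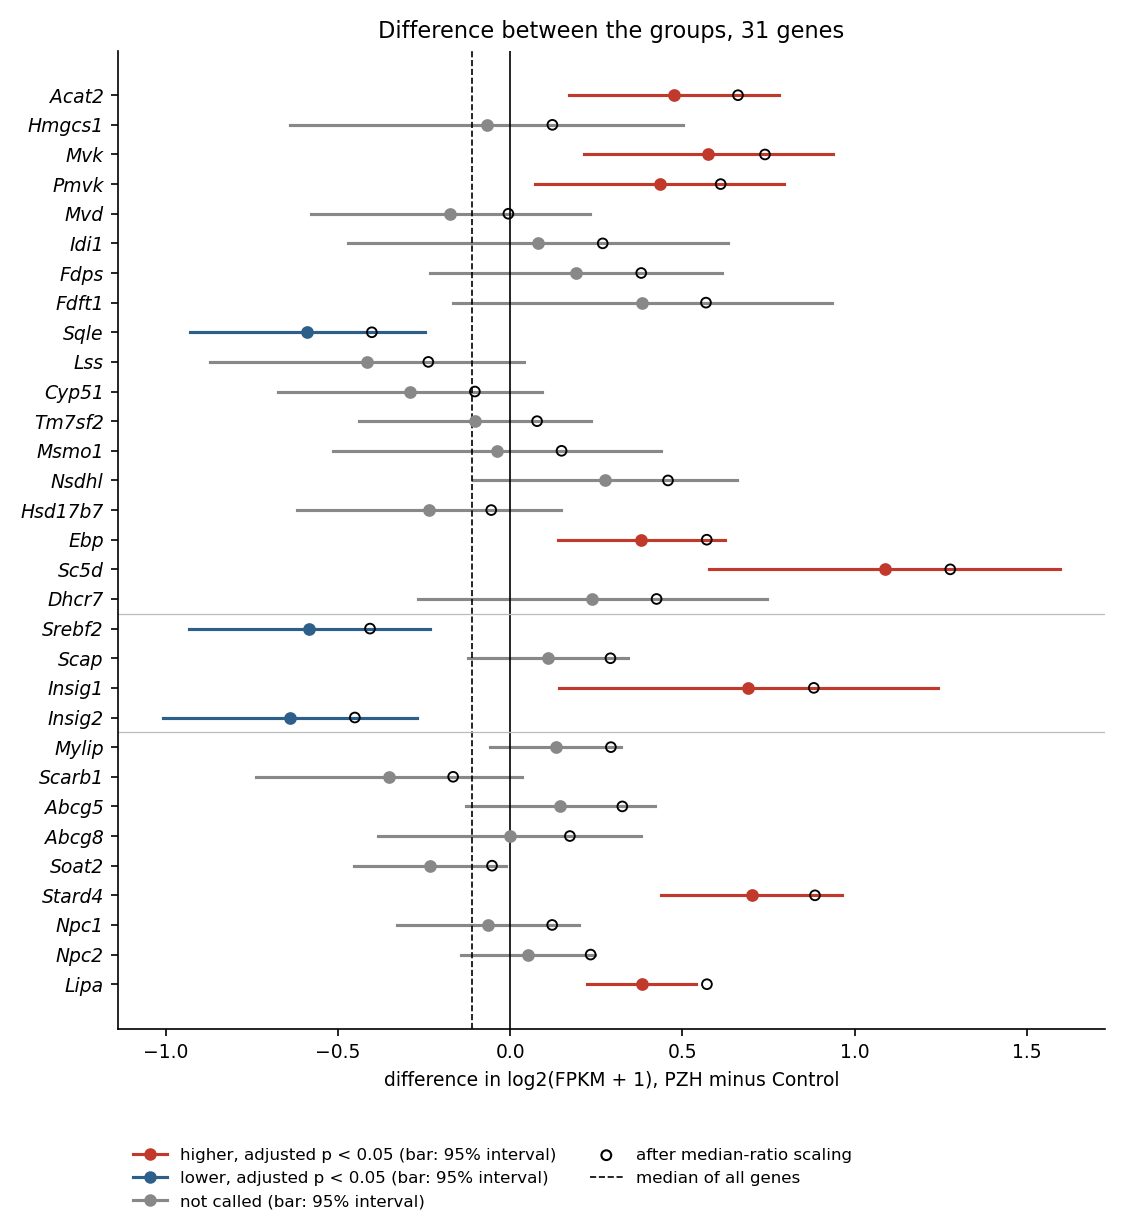
Difference between the groups (log2(FPKM + 1), PZH minus control) for the 31 genes in the order enzymes, regulators and handling genes, with 95% intervals as bars, the value after median-ratio scaling as an open circle and the median of all genes (-0.11) as a dashed line. The 8 called rises reach from 0.38 to 1.09 and the 3 called falls from -0.58 to -0.64, and the open circle lies to the right of the filled one for every gene.

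Between acetyl-CoA and squalene, 3 of 8 enzymes were higher in the PZH group and none was lower. Acat2 encodes the cytosolic enzyme that joins acetyl-CoA units at the start of the pathway. Its lowest, median and highest levels were 24.8, 31.2 and 41.2 FPKM in the PZH group and 18.4, 22.9 and 29.8 FPKM in the control group. Of the PZH mice, 4 lay above the highest control mouse and all 6 above the control median. The difference was 0.48 (SE 0.14, adjusted p = 0.0150). Acat2 lies beside Acat3 on chromosome 17, a gene of nearly the same sequence, so reads could be split between them. Acat3 was higher too (adjusted p = 7.38e-05), with 59.0 to 86.1 FPKM in the PZH group and 39.2 to 50.2 FPKM in the control group.

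Mvk, which phosphorylates mevalonate, had the lowest mean level of the 18 enzymes in the control group, and the second lowest after Mvd in the PZH group. It ranged from 5.17 through a median of 8.60 to 10.4 FPKM in the PZH group and from 4.12 through 4.68 to 6.90 FPKM in the control group. All but 2 PZH mice exceeded every control mouse. The difference was 0.58 (SE 0.17, adjusted p = 0.0133). Pmvk carries out the next phosphorylation, and its lowest, median and highest levels were 10.6, 14.8 and 17.9 FPKM with PZH and 7.13, 9.77 and 15.0 FPKM without. Of the PZH mice, 3 lay above the highest control mouse, Control 3. The difference of 0.43 (SE 0.17) stood at the edge of the threshold (adjusted p = 0.0497) and remained called in 4 of the 12 fits that left out 1 mouse, with an adjusted p of up to 0.107.

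The other 5 enzymes of this stretch did not pass the test. Hmgcs1, which makes HMG-CoA from acetyl-CoA units, was among the most abundant of the 31 genes at 109.8 ± 31.5 (SD, n = 6) FPKM in the PZH group and 119 ± 50.7 (SD, n = 6) FPKM in the control group, and the 95% interval of its difference reached from -0.64 to 0.50. Mvd, which decarboxylates the mevalonate product to isopentenyl diphosphate, differed by -0.17 (interval -0.58 to 0.23). The interval of Idi1, the isomerase of that product, was -0.47 to 0.63 around 0.08. Fdps, which builds farnesyl diphosphate, ranged from 66.2 to 127 FPKM with PZH and from 57.2 to 122 FPKM without, a difference of 0.19 (interval -0.23 to 0.61). Fdft1, the squalene synthase, had a median of 30.3 FPKM (up to 41.9) in the PZH group and 20.9 FPKM (up to 47.1) in the control group. Control 3, at 47.1 FPKM, lay far above the next control mouse at 24.0 FPKM. With all mice the difference of Fdft1 was 0.38 (SE 0.25, adjusted p = 0.243), and without Control 3 it was 0.59 (adjusted p = 0.0301).

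Between squalene and cholesterol, 2 of 10 enzymes were higher and 1 was lower. Sqle, the epoxidase that commits squalene to sterols, was the lower one. Its lowest, median and highest levels were 19.4, 30.5 and 34.1 FPKM in the PZH group and 33.0, 43.8 and 60.1 FPKM in the control group. Only 1 PZH mouse, PZH 6 at 34.1 FPKM, reached the range of the control mice, and none reached the control median. The difference was -0.59 (SE 0.16, adjusted p = 0.00874), and after median-ratio scaling it was -0.40, which was not called. Sc5d, the sterol desaturase near the end of the pathway, had the largest difference of the 31 genes. It ranged from 132 through a median of 151 to 260.2 FPKM in the PZH group and from 53.2 through 73.2 to 137 FPKM in the control group. Control 3 alone came within the range of the PZH mice. The difference of Sc5d was 1.09 (SE 0.24, adjusted p = 0.00240), a 2.12-fold difference on the scale of FPKM + 1.

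Ebp, the sterol isomerase that acts just before Sc5d, was higher as well. Levels of 59.7, 70.8 and 97.5 FPKM (lowest, median and highest) in the PZH group stood beside 48.3, 55.2 and 61.9 FPKM in the control group. The ranges overlapped slightly, with 2 PZH mice below the highest control mouse. Its difference was 0.38 (SE 0.11, adjusted p = 0.0144). The remaining 7 enzymes of this stretch were not called. Lss, which closes the rings to lanosterol, had 6.53, 11.0 and 13.9 FPKM with PZH and 9.35, 13.5 and 21.7 FPKM without as lowest, median and highest levels, a difference of -0.42 (interval -0.87 to 0.04, adjusted p = 0.128). Cyp51, the lanosterol demethylase, stood at 41.0 ± 9.07 (SD, n = 6) against 50.6 ± 12.5 (SD, n = 6) FPKM, a difference of -0.29 (interval -0.67 to 0.09).

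The reductase Tm7sf2 differed by -0.10 (interval -0.44 to 0.24). Demethylation of the ring carbon is shared by Msmo1, Nsdhl and Hsd17b7. Msmo1, the oxidase, had nearly equal means of 52.6 ± 21.4 (SD, n = 6) and 52.3 ± 12.4 (SD, n = 6) FPKM, with PZH 1 at 93.4 FPKM far above the next PZH mouse at 54.3 FPKM. Nsdhl, the decarboxylating dehydrogenase, differed by 0.28 (interval -0.11 to 0.66) and Hsd17b7, the ketoreductase, by -0.24 (interval -0.62 to 0.15). Dhcr7, which reduces 7-dehydrocholesterol to cholesterol, ranged from 29.5 to 42.0 FPKM in the PZH group and from 18.0 to 64.8 FPKM in the control group. All PZH mice exceeded the control median of 26.3 FPKM, and Control 3 exceeded all PZH mice. Its difference was 0.24 (interval -0.27 to 0.75) with all mice and 0.46 (adjusted p = 0.0158) without Control 3.

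**Figure D2:**
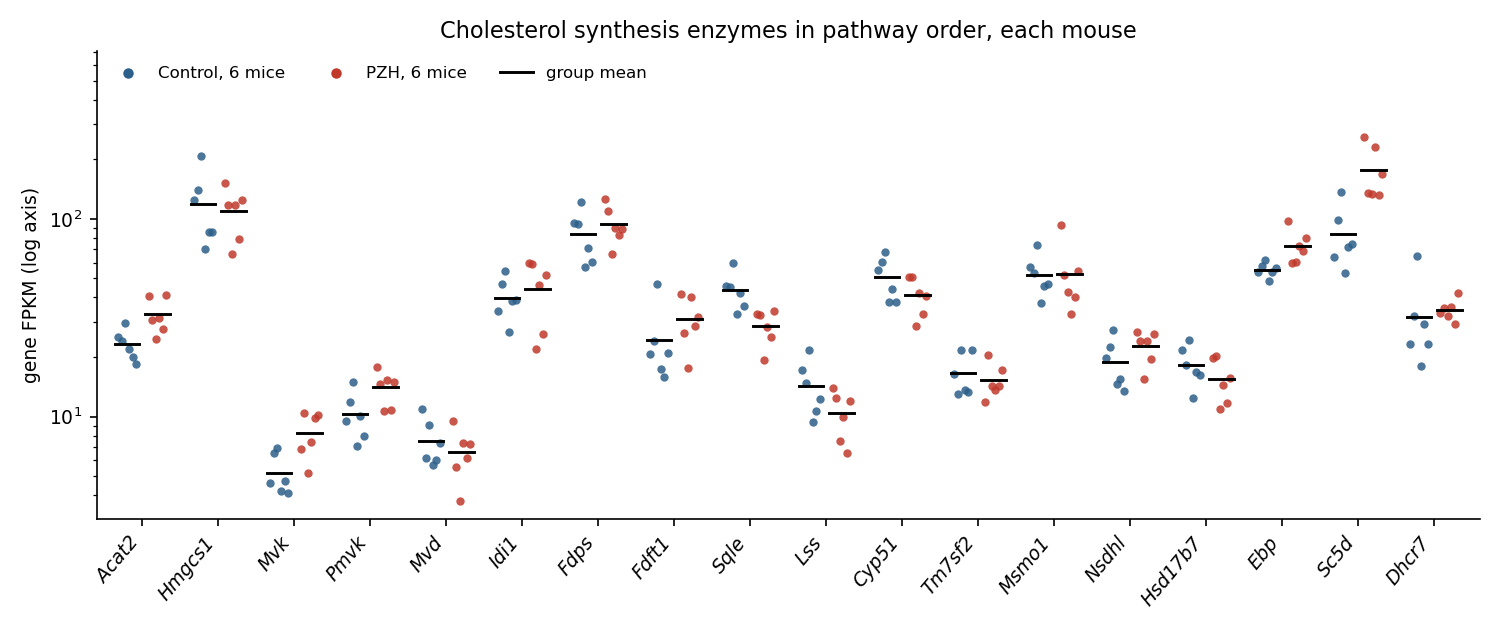
Gene FPKM (log axis) of the 18 synthesis enzymes in pathway order, with 1 point per mouse, control mice in blue and PZH mice in red, and a bar at the mean of each group of 6 mice. The red points lie mostly above the blue ones for Mvk, Ebp and Sc5d and below them for Sqle, and the highest blue point of 17 genes belongs to Control 3.

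Of the 4 regulators, 3 were called, in both directions. Srebf2, the gene of SREBP2, was lower in all PZH mice. Its lowest, median and highest levels were 5.58, 10.8 and 11.7 FPKM in the PZH group and 11.7, 14.8 and 17.2 FPKM in the control group. The groups only just failed to overlap, and PZH 1 was the lowest mouse. The difference was -0.58 (SE 0.16, adjusted p = 0.0107), and it was -0.41 after median-ratio scaling (adjusted p = 0.0366). Scap, the escort of SREBP2, differed by 0.11 (interval -0.12 to 0.34) as deposited. PZH 1, at 12.1 FPKM, was again the lowest PZH mouse, below the next at 16.7 FPKM.

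The INSIG genes, whose proteins hold SCAP back, moved in opposite directions. Insig1 had the second highest mean level of the 31 genes in each group, after Sc5d in the PZH group and Hmgcs1 in the control group, with lowest, median and highest levels of 113, 145 and 262 FPKM in the PZH group and 66.7, 88.2 and 199.9 FPKM in the control group. Every PZH mouse lay above the control median of 88.2 FPKM, but Control 3, at 199.9 FPKM, lay above all PZH mice except PZH 1. The difference of 0.69 (SE 0.25, adjusted p = 0.0415) remained called in 3 of the 12 fits that left out 1 mouse, with an adjusted p of up to 0.0899. It was largest without Control 3, at 0.90 (adjusted p = 0.00266).

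Insig2 showed the reverse, with 23.4, 27.3 and 49.4 FPKM as lowest, median and highest level in the PZH group and 43.4, 49.5 and 61.3 FPKM in the control group. Of the PZH mice, 5 lay below every control mouse, and only PZH 6 lay within their range. The difference was -0.64 (SE 0.17, adjusted p = 0.00853), and -0.45 after median-ratio scaling, which was not called. The ratio of Insig1 to Insig2 FPKM within a mouse ran from 2.80 to 9.45 in the PZH group and from 1.28 to 3.26 in the control group, so only PZH 6 overlapped with a control mouse, Control 3.

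Insig2 has a start 4565 bases upstream of its main start on chromosome 1 (GRCm38 positions 121332589 and 121328024, minus strand), used by 2 of its 9 listed transcripts. The promoters printed above are those of these starts. Transcripts from the upstream start made up 8.67% ± 3.32 (SD, n = 6) of the Insig2 FPKM in the PZH group, from 5.24% to 12.97%, and 12.8% ± 1.90 (SD, n = 6) in the control group, from 10.2% to 14.9%. PZH 4 and PZH 6 lay within the control range and the other 4 below it (two-sided exact permutation test, p = 0.0325, chosen after the values were seen). The larger transcript of each of these starts was at a lower mean in the PZH group. ENSMUST00000071064, from the upstream start, stood at 2.89 against 6.20 FPKM, and ENSMUST00000003818, from the main start, at 25.1 against 33.8 FPKM. Other transcripts began downstream of the main start, among them ENSMUST00000161818 at 3.80 against 6.36 FPKM, which was 11.6% and 12.7% of the gene. No promoter is printed for those starts.

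**Figure D3:**
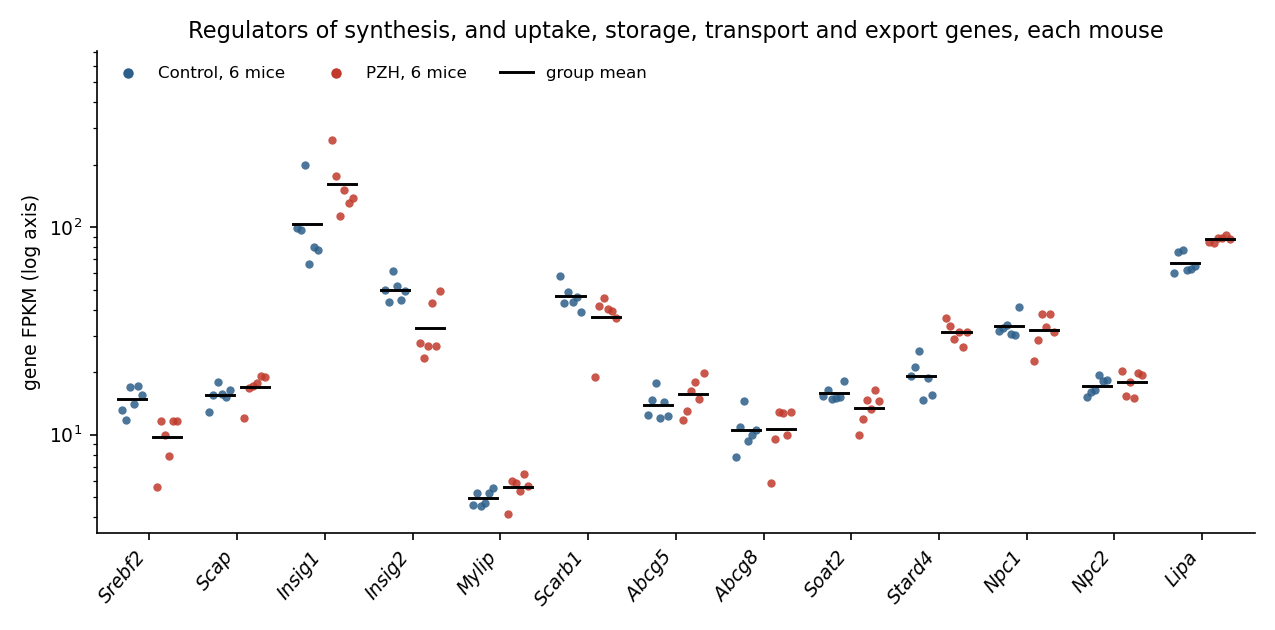
Gene FPKM (log axis) of the 4 regulators of synthesis and the 9 uptake, storage, transport and export genes, with 1 point per mouse, control mice in blue and PZH mice in red, and a bar at the mean of each group of 6 mice. The groups are apart for Srebf2, Stard4 and Lipa, and PZH 1 is the lowest red point for 8 of these 13 genes.

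Among the 9 handling genes, 2 were higher and none was lower. Stard4, a soluble carrier that moves cholesterol between membranes, had 26.3, 31.3 and 36.6 FPKM as lowest, median and highest level in the PZH group and 14.7, 18.9 and 25.3 FPKM in the control group. All PZH mice exceeded all control mice. The difference was 0.70 (SE 0.12, adjusted p = 0.000559). Lipa, the acid lipase that frees cholesterol from its esters in lysosomes, ranged narrowly from 83.5 through a median of 88.1 to 91.7 FPKM in the PZH group and from 60.3 through 64.1 to 77.8 FPKM in the control group. Here too all PZH mice exceeded all control mice, and the SD of 2.98 FPKM in the PZH group was small beside a mean of 87.5 FPKM. The difference was 0.38 (SE 0.07, adjusted p = 0.00102). The exact permutation p was 0.0022 for Stard4, Lipa and Srebf2 alike, the smallest that 6 against 6 mice can give.

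The other genes of lysosomal release did not pass the test. Npc2, which binds the freed cholesterol in the lumen, had means of 17.9 ± 2.28 (SD, n = 6) and 17.2 ± 1.62 (SD, n = 6) FPKM, a difference of 0.05 (interval -0.14 to 0.25). Npc1, which takes it through the lysosomal membrane, had means of 32.0 ± 5.93 (SD, n = 6) and 33.2 ± 4.10 (SD, n = 6) FPKM, a difference of -0.06 (interval -0.33 to 0.20). Of 14 other lysosomal genes, 2 were called, both higher, beside 44.8% of all genes. Ctsd, cathepsin D, was among them, with a difference of 0.34 (adjusted p = 0.0258). The lysosomal count depended on the scaling, since 8 of 14 were called, all higher, after the median-ratio factor, beside 39.1% of all genes.

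Scarb1, the receptor that takes up cholesterol esters from HDL, had 19.0, 39.9 and 45.5 FPKM as lowest, median and highest level in the PZH group and 38.9, 44.8 and 58.1 FPKM in the control group. PZH 1, at 19.0 FPKM, lay far below the next PZH mouse at 36.6 FPKM. The difference was -0.35 (interval -0.74 to 0.03, adjusted p = 0.127). Soat2, which esterifies cholesterol for storage and secretion, was below the lowest control mouse in 5 of 6 PZH mice, with a difference of -0.23 (interval -0.45 to -0.01, adjusted p = 0.0796). It was not called with all mice, but it was called lower (-0.29, adjusted p = 0.0322) without PZH 5.

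Mylip, a ubiquitin ligase that marks lipoprotein receptors for breakdown, had the lowest mean level of the 31 genes in each group, 5.57 ± 0.789 (SD, n = 6) FPKM in the PZH group and 4.97 ± 0.425 (SD, n = 6) FPKM in the control group. Its difference was 0.13 (interval -0.06 to 0.32) as deposited and was called after median-ratio scaling, as given above, and also without PZH 1 (0.20, adjusted p = 0.0250). Abcg5 and Abcg8 together encode the transporter that secretes cholesterol into bile, and their main starts lie 120 bases apart on chromosome 17 in opposite directions. Abcg5 stood at 15.6 ± 3.02 (SD, n = 6) and 13.9 ± 2.18 (SD, n = 6) FPKM, a difference of 0.15 (interval -0.13 to 0.42). Abcg8 stood at 10.6 ± 2.76 (SD, n = 6) and 10.5 ± 2.23 (SD, n = 6) FPKM, a difference of -0.00 (interval -0.38 to 0.38).

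The enzymes varied together from mouse to mouse within each group. Control 3 had the highest level of the control mice in 17 of the 18 enzymes, and Control 4 the lowest in 12. In the PZH group, PZH 1 was highest in 12 and PZH 3 lowest in 12. The mean of the 18 enzymes on log2(FPKM + 1) ran from 4.44 (Control 4) to 5.40 (Control 3) and from 4.52 (PZH 3) to 5.30 (PZH 1), so the spread within each group covered nearly the same range in both. PZH 1 also had the largest FPKM sum over the table, 370426 beside 326060 to 346874 in the other PZH mice. Yet its median-ratio scale factor was the lowest of the 12 mice, 0.875 beside 0.897 to 1.005 in the other PZH mice. The part of either in the levels of PZH 1 was not tested. The same mouse was the lowest of the PZH group in 8 of the 13 genes outside synthesis. Among the 31 genes, leaving PZH 1 out ended only the calls of Pmvk and Insig1 and made only that of Mylip.

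Over the 6 mice of a group, the median Pearson correlation among the 153 pairs of enzymes was 0.67 in the PZH group, with 141 pairs above 0, and 0.83 in the control group, with all 153 pairs above 0. These pairs share the same 6 livers, libraries and scaling. Leaving out the most extreme mouse lowered the medians to 0.59 (without PZH 3) and 0.64 (without Control 3). Insig1 and Stard4 varied with the enzymes: their median correlations with the 18 enzymes were 0.74 and 0.69 in the PZH group and 0.89 and 0.90 in the control group. The medians were -0.41 and 0.12 for Srebf2 and 0.31 and 0.41 for Insig2. Without Control 3 the control medians of Insig1 and Stard4 were 0.75 and 0.79, and the signs turned for Srebf2, at -0.42, and for Insig2, at -0.53. The heat map of deviations shows this common pattern as columns of 1 colour across the enzymes.

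**Figure D4:**
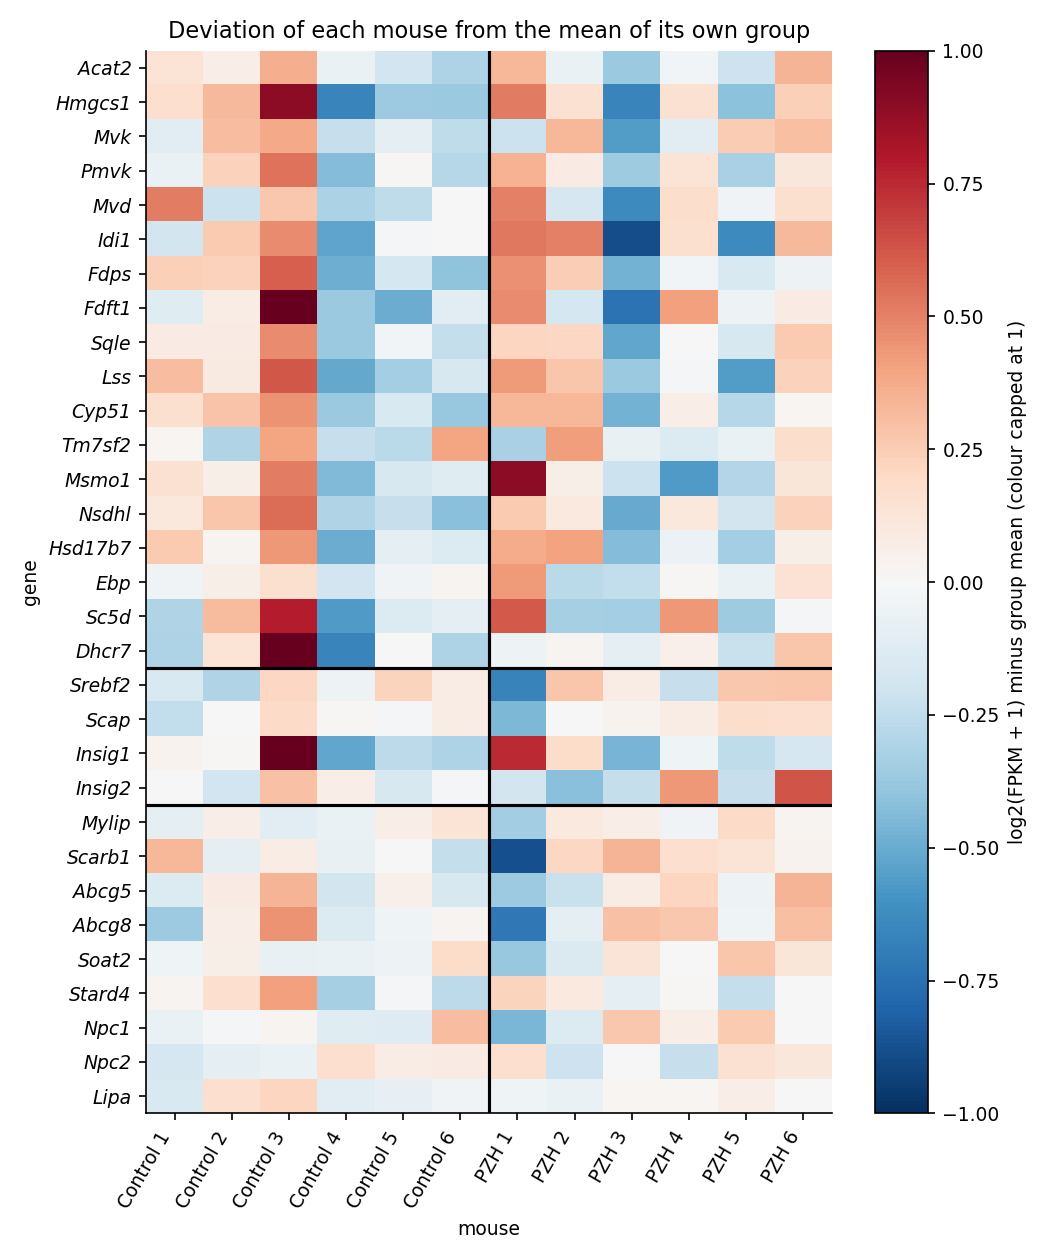
Deviation of each mouse from the mean of its own group on log2(FPKM + 1) for the 31 genes, with enzymes above, regulators between and handling genes below the black lines, control mice on the left and PZH mice on the right. Red is above and blue below the group mean, and Control 3 and PZH 1 are red and Control 4 and PZH 3 blue across most of the 18 enzymes.

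Since the enzymes shared this variation, each gene was also expressed relative to the mean of the other synthesis enzymes in the same mouse, on the log2 scale. This measure was chosen after the values were seen, and it is given without a test. The groups did not overlap for 6 of the 31 genes, beside 3.35% of all genes on the same measure. These shares are not alike: subtracting the enzyme mean takes variation out of genes that share it and adds it to genes that do not. On the levels themselves the groups did not overlap for Srebf2, Stard4 and Lipa, and for 24.3% of all genes. Relative to the other enzymes, Sqle (-0.75), Lss (-0.57) and Cyp51 (-0.44), consecutive steps from squalene through lanosterol, were lower in all PZH mice than in all control mice. Sc5d (1.02), Stard4 (0.58) and Pmvk (0.33) were higher in all PZH mice. On their own levels Lss (adjusted p = 0.128) and Cyp51 (adjusted p = 0.203) overlapped between the groups and were not called. Within a mouse, the ratio of Sqle to Fdft1 FPKM, the enzymes on either side of squalene, ran from 0.707 to 1.24 in the PZH group and from 1.28 to 2.66 in the control group. The ratio of Sc5d to Cyp51 ran from 2.65 to 5.45 and from 1.16 to 2.02. In these ratios the groups lay apart. Sqle and Sc5d were also called on their own levels and Cyp51 and Fdft1 were not, so the ratios do not show a change in Cyp51 or Fdft1. The ratio of Sc5d to Ebp, the enzyme just before it, ran from 1.92 to 3.16 and from 1.10 to 2.22, so the groups overlapped. These ratios were chosen after the values were seen, and they are free of any scale factor of a mouse. Among all 153 ratios between 2 of the 18 enzymes, the groups lay apart in 33 (21.6%).

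**Figure D5:**
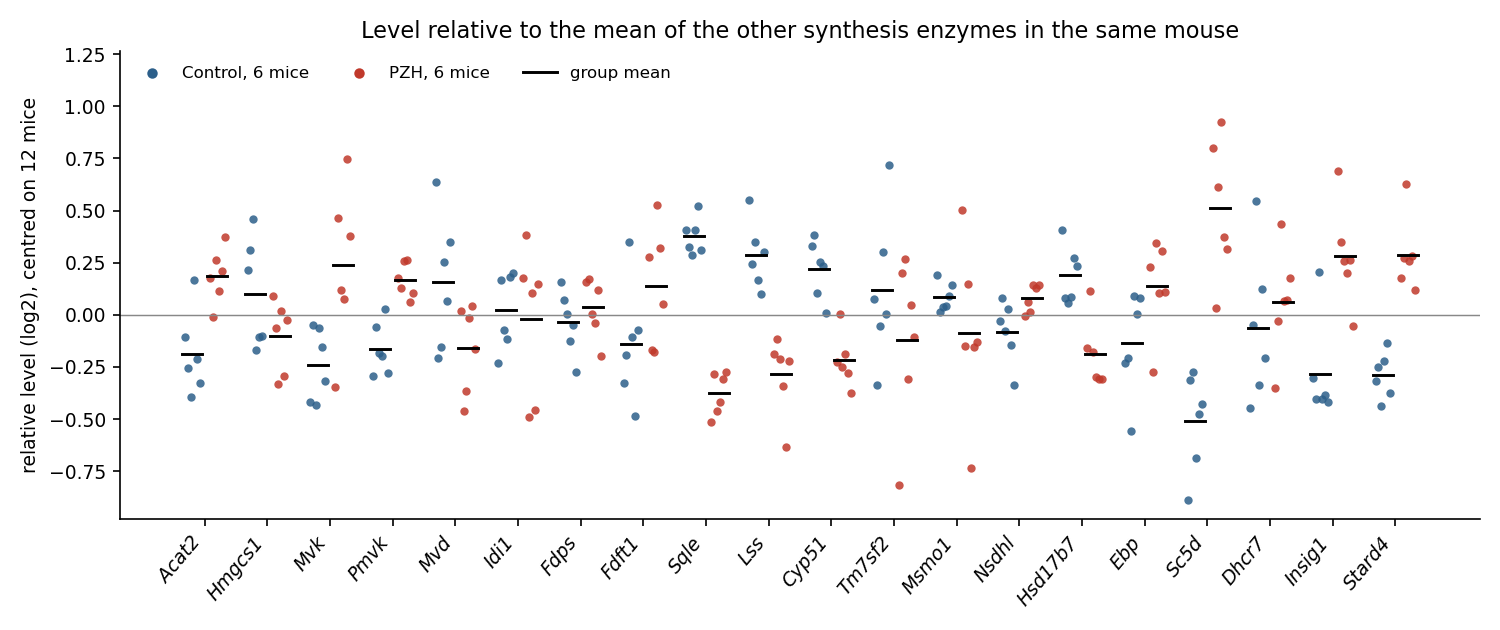
Level of the 18 enzymes, Insig1 and Stard4 relative to the mean of the other synthesis enzymes in the same mouse (log2 scale, centred on the 12 mice for each gene), with control mice in blue, PZH mice in red and a bar at each group mean. Sqle, Lss and Cyp51 lie lower and Pmvk, Sc5d and Stard4 higher in all PZH mice than in all control mice.

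The study called single transcripts rather than genes, and 4 of the 86 listed transcripts passed its criteria, beside 3.23% of all transcripts. At an adjusted p below 0.05, 11 of the 86 were called, 8 higher and 3 lower, beside 19.7% of all transcripts. The 3 lower ones were of Sqle (ENSMUST00000022977), Srebf2 (ENSMUST00000023100) and Insig2 (ENSMUST00000071064). After median-ratio scaling their adjusted p was 0.159, 0.0734 and 0.0782, so none of them was called. The Mylip transcript ENSMUST00000038275 was then called higher (0.28, adjusted p = 0.0195). The shorter Sc5d transcript ENSMUST00000169609 (chromosome 9, 42254733 to 42264200, GRCm38) rose from 19.4 to 69.7 FPKM, a log2 difference of 1.86 (adjusted p = 0.0123), and made up 39.5% of the gene with PZH and 23.3% without. Its share per mouse was 26.6% to 52.7% with PZH and 9.89% to 33.2% without, so the groups overlapped in the share. The longer Sc5d transcript ENSMUST00000052725 rose as well, by 0.76 (adjusted p = 0.0146). The Mvk transcript ENSMUST00000112239 (chromosome 5, 114444286 to 114460477) rose by 1.05 (adjusted p = 0.0366) and the Insig2 transcript ENSMUST00000071064 fell by 1.02 (adjusted p = 0.0272). After median-ratio scaling the difference of this Insig2 transcript was -0.86, short of a 2-fold change. The Fdps transcript ENSMUST00000196921 passed at an unadjusted P of 0.0395 (adjusted p = 0.135), through PZH 2 at 11.3 FPKM and PZH 3 at 7.89 FPKM.

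Those mice also differed from the rest in the main transcripts of Fdps. ENSMUST00000196709 was listed at 0 in PZH 2 and PZH 3 and at 44.0 to 107 FPKM in the other 10 mice, while ENSMUST00000081848 stood at 95.6 and 57.8 FPKM in those 2 mice and at 8.90 to 29.8 FPKM in the others. The summed level of Fdps varied far less, from 57.2 to 127 FPKM. The 7 transcripts of Dhcr7 traded places in the same way: ENSMUST00000073878, for example, was listed at 0 in 3 mice and at 32.7 FPKM in PZH 4. In all, 18 of the 86 transcripts were at 0 in at least 1 mouse, and 5 of these, from Acat2, Fdps and Dhcr7, reached 10 FPKM or more in another mouse.

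Neighbouring pathways were counted from lists of genes chosen by name, with earlier results of these data known. For comparison with every list below, 44.8% of all genes were called as deposited and 39.1% after median-ratio scaling. Of 25 other sterol genes, 14 were called, 4 higher and 10 lower. Srebf1, the gene of the related factor SREBP1, rose by 1.07 (adjusted p = 0.000209), from 13.3 to 28.2 FPKM in the control group to 33.8 to 56.0 FPKM in the PZH group, in contrast to the lower level of Srebf2. Osbp, an oxysterol-binding protein, fell by 0.82 (adjusted p = 5.75e-05), and Stard5, a relative of Stard4, rose by 0.71 (adjusted p = 0.000308). After median-ratio scaling 9 of the 25 were called, 5 higher and 4 lower.

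Of 13 fatty acid synthesis genes, with Srebf1 among them, 10 were higher and none was lower (12 higher after median-ratio scaling), and their median difference of 0.66 stood beside 0.14 for the cholesterol synthesis enzymes. Acss2, which makes acetyl-CoA from acetate, rose by 1.69 (adjusted p = 0.000414), Acacb, an acetyl-CoA carboxylase, by 1.28 (adjusted p = 0.000129) and Elovl6, a fatty acid elongase, by 1.09 (adjusted p = 0.000447). The circadian clock list moved too, with 11 of 15 genes called, 8 higher and 3 lower, and Dbp (2.73), Per3 (1.88), Tef (1.49) and Nr1d1 (1.11) in front. The part of the clock genes in the differences above was not tested.

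Of the marker lists, 5 of 6 measured hepatocyte markers were called, 4 higher and 1 lower, and their summed level was 39635 to 56008 FPKM in the PZH group and 22537 to 35632 FPKM in the control group, without overlap. Most of this sum is Alb, the gene of albumin, and no marker on the list was at 0 in a mouse. Among 7 Kupffer cell and macrophage markers 3 were higher and 2 lower (summed level 201 to 296 against 191 to 254 FPKM), and among 7 stellate cell and myofibroblast markers 1 was higher and 2 were lower (277 to 356 against 213 to 331 FPKM). Among 6 endothelial markers 2 were lower (77.1 to 99.9 against 88.2 to 101 FPKM), and among 5 cholangiocyte markers 1 was lower (66.9 to 133 against 96.9 to 161 FPKM). None of 6 lymphocyte markers was called by limma, and none had an unadjusted p below 0.05 (4.78 to 7.69 against 4.27 to 7.02 FPKM). After median-ratio scaling 5 Kupffer cell and macrophage markers were higher and 1 was lower, and 4 stellate cell and myofibroblast markers were higher and 2 were lower. It also gave 1 higher and 1 lower endothelial marker, 1 higher and 1 lower cholangiocyte marker, 2 higher lymphocyte markers, and 4 higher and 0 lower hepatocyte markers. The higher hepatocyte sum stands beside members that were higher (Sc5d, Stard4, Lipa) and beside members that were lower (Srebf2, Insig2, Sqle), and its part in either was not tested.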

How the data were processed

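Liver RNA of 6 PZH and 6 control mice was sequenced as strand-specific libraries without ribosomal RNA. According to the methods and the submitters' processing notes, the authors trimmed reads with Trimmomatic, aligned them to GRCm38 with HISAT2 and assembled transcripts with StringTie and an Ensembl annotation. The authors deposited FPKM per transcript and mouse, which are scaled for length and library size and are not counts. The table of lncRNA transcripts was not used, since it held 0 transcripts of the 31 genes.

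Of 29883 protein-coding transcripts, 29876 were assigned to 14188 genes with GENCODE M21 and summed per gene, with no filter. Groups were compared on log2(FPKM + 1), a pseudocount of 1, with limma 3.58.1 in R 4.3.3, default moderation, no covariate and Benjamini-Hochberg adjustment over all genes, and separately over all transcripts. Fold changes of low genes are understated on this scale. Intervals are 95% intervals from the same fit, not adjusted. Single values used a two-sided exact permutation test. Tables and figures used Python 3.11.15, pandas 2.3.3, numpy 2.4.6 and matplotlib 3.10.9. On simulated data with 200 of 14188 genes changed by 1 on the log2 scale, 90% were recovered and 8 unchanged genes were called.

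The gene members and lists were chosen with earlier results of these data known. All 31 genes are named, with at most 4 called genes of each other list by size of difference, transcripts that passed the 2-fold criteria and the most abundant transcripts. Promoters were printed for called genes, and that of Hmgcs1 was added after its match was seen, as were the transcripts of Fdps and Dhcr7 listed at 0. Results were recomputed with median-ratio scaling, with an equal sum per mouse, with a pseudocount of 0.1, with only genes whose mean FPKM was 1 or more, with a mean-variance trend, with the most abundant transcript in place of the sum, with mouse numbers as blocks and without each mouse. One hepatocyte marker was not analysed here, and 2 called genes of the other lists, which remain in their counts, are not reported here by name.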

Additional observations from a re-analysis of the deposited data

Results flagged for a closer look

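In each gene the 6 mice of a group were examined for a single mouse whose gap to the nearest other, divided by the range of the group, exceeded Dixon's critical value at 95%. This held in 7 of 62 groups, where chance gives about 1 in 20, or 3.1. The groups are not independent, since all genes come from the same mice and the enzymes varied together, so 1 extreme mouse can count several times. Control 3 stood apart with high levels of Fdft1 (47.1 FPKM, next 24.0), Dhcr7 (64.8 FPKM, next 32.1) and Insig1 (200 FPKM, next 98.5). PZH 1 stood apart with a high level of Msmo1 (93.4 FPKM, next 54.3) and low levels of Scap (12.1 FPKM, next 16.7) and Scarb1 (19.0 FPKM, next 36.6). Control 6 had a high level of Npc1 (41.1 FPKM, next 33.7). Control 3 and PZH 1 thus account for 6 of the 7.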

How the results depend on the processing

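Of the 11 called genes, Acat2, Mvk, Ebp, Sc5d, Srebf2, Stard4 and Lipa remained called in all 12 fits without 1 mouse and under all 7 other alternatives, and Sqle and Insig2 in all but median-ratio scaling. Median-ratio scaling left 0 enzymes called lower, 2 regulators higher and 1 lower, and over all genes 2807 higher and 2739 lower, with 9 other sterol, 8 lysosomal, 6 stellate, 2 cholangiocyte and 2 lymphocyte genes called. It turned the uncalled differences of Hmgcs1 to 0.12, Tm7sf2 to 0.0781, Msmo1 to 0.15, Abcg8 to 0.17 and Npc1 to 0.12. An equal sum per mouse called 4 lysosomal genes. The most abundant transcript alone gave -1.84 for Fdps and 0.0763 for Abcg8. With a pseudocount of 0.1, 7 member transcripts met the 2-fold criteria. By those criteria 1 enzyme was higher and 0 lower, and 0 regulators were higher, 0 lower and 0 handling genes higher. Insig1 was lost with the most abundant transcript alone (adjusted p = 0.0569). Pmvk was lost there and with an equal sum or a pseudocount of 0.1 (adjusted p = 0.0586 to 0.0612). Without 1 mouse, 0 to 1 regulators, 4 to 7 enzymes and 2 to 3 handling genes were higher, 0 to 1 handling genes were lower, and 1 to 4 lysosomal and 0 to 1 lymphocyte genes were called. Uncalled differences that changed sign ran from -0.20 to 0.11 (Hmgcs1), -0.0254 to 0.257 (Idi1), -0.219 to 0.0744 (Msmo1), -0.0737 to 0.142 (Abcg8) and -0.119 to 0.0267 (Npc1). Mice of the same number did not deviate together (correlation -0.08 to 0.09), so the numbers are not taken to pair them. With the number as a block 0 regulators were called higher, and Insig1 (adjusted p = 0.0656) and Pmvk (adjusted p = 0.104) were not called. The cause of these changes was not tested. The depth of FPKM is unknown, so the counting error of genes near 5 FPKM is unknown too.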
